A study of Mus musculus with 8 samples.

Results

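The genes described here are 10 markers of mural cells, the smooth muscle cells and pericytes that wrap blood vessels, out of 22518 genes in the deposited expression table. They were picked by symbol and fall into 5 contractile smooth muscle genes (Acta2, Tagln, Myh11, Cnn1 and Myl9) and 5 pericyte genes (Rgs4, Rgs5, Cspg4, Abcc9 and Higd1b). All 10 had a mean of at least 1 FPKM (fragments scaled to transcript length and to the number of mapped fragments) over the samples and so entered a test across 11390 genes. RNA was taken from whole hearts of C57BL/6 mice at postnatal day 12, with 4 libraries made from PHD2/3 endothelial knockout mice and 4 from their wild type littermates. PHD2 and PHD3, encoded by Egln1 and Egln3, are the oxygen-dependent prolyl hydroxylases that mark hypoxia-inducible factors (HIF) for destruction. The labels place their loss in endothelial cells, not in mural cells. The promoter that drove the deletion is not given in the sources used here. Nothing in the labels ties each library to a separate animal, so the p-values measure the spread between these libraries.

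Arteries and larger vessels are wrapped by smooth muscle cells, whose actin and myosin filaments set vessel tone, whereas capillaries carry pericytes, which sit in the endothelial basement membrane and are recruited by endothelial PDGF-B acting on the receptor PDGFRB. The contractile genes share a control by serum response factor (SRF) and its partner myocardin, which bind a short DNA element called the CArG box. None of the 10 markers is exclusive to mural cells: immature heart muscle cells and activated fibroblasts can make Acta2 and Tagln, Myl9 is made by many cell types, and heart muscle cells use Abcc9 in their own potassium channel.

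Neither targeted gene was lower in the knockout libraries. Egln1 ranged over 45.2 to 57.9 FPKM with the wild type and 52.6 to 63.5 FPKM with the knockout genotype (limma adjusted p = 0.442), and Egln3 over 18.0 to 38.7 and 32.6 to 52.8 FPKM (limma adjusted p = 0.132). Which exons were deleted is not given here, and these gene-level values do not check the deletion and the genotype rests on the labels. All 8 libraries carried heart muscle RNA, with Myh6 at 2883 to 3836 FPKM. The table is quantile normalised, so depth is unknown and some libraries share exact values. Wild type replicate 4 held airway and lung genes summing to 1298 FPKM over 8 markers, against at most 1.14 FPKM in the other 7 libraries; airways and lung vessels also carry smooth muscle. The atrial gene Bmp10 reached 49.6 and 74.2 FPKM in replicates 2 and 3 of the wild type, and 137 and 141 FPKM in knockout replicates 2 and 3, and at most 1.12 FPKM in the other 4 libraries. Among wild type libraries the other atrial markers did not all follow Bmp10. Wild type Myl7 reached 1233 and 1257 FPKM for replicates 1 and 4, but only 599 and 776 FPKM for replicates 2 and 3. Myl4 and Sln were likewise higher in wild type replicates 1 and 4. Among knockout libraries Myl7, Myl4, Sln and Nppa all followed Bmp10, with higher values in replicates 2 and 3. Knockout Myl7 reached 1428 and 1246 FPKM for replicates 2 and 3, but only 400 and 566 FPKM for replicates 1 and 4.

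The mural markers did not move together in the knockout hearts. Of the 5 contractile genes, 1 rose (Tagln) and 0 fell, while 4 missed the threshold. Of the 5 pericyte genes, 0 rose, 0 fell and 5 did not pass limma's test, with 0 higher and 1 lower (Rgs4) at an unadjusted p under 0.05. Across all genes tested, 12.2% were called, 6.15% higher and 6.01% lower, so 1 call among 10 markers is near that background. The knockout and wild type values did not overlap for 2 contractile genes (Tagln and Myl9) and for 0 pericyte genes, against 20.7% of all genes tested. In whole-heart RNA, fewer cells of a type and less RNA per cell cannot be told apart.

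**Figure D1:**
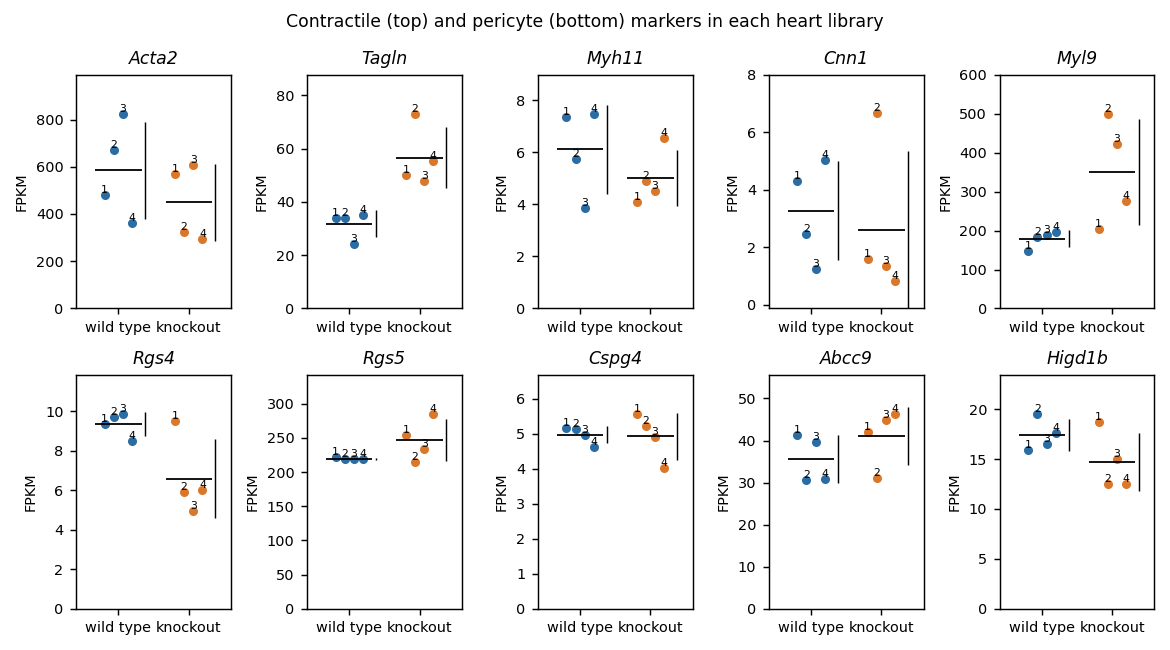
FPKM of the 10 mural markers (contractile genes in the top row, pericyte genes in the bottom row) on linear axes; each point is 1 heart library with its replicate number, the horizontal line is the mean and the vertical line is ± 1 SD (n = 4 per group). Tagln and Myl9 lie higher in every knockout library than in any wild type library, and the groups overlap for the other 8 genes.

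Tagln encodes transgelin (SM22), an actin-binding protein of smooth muscle. Its gene (ENSMUSG00000032085, chromosome 9, 45929619 to 45936058 in mm10, minus strand) measured 33.9, 34.1, 24.1 and 34.9 FPKM across wild type hearts 1 to 4, and 49.995, 73.1, 47.7 and 55.2 FPKM across knockout hearts 1 to 4. Every knockout value lay above every wild type value, with knockout replicate 2 the highest and wild type replicate 3 the lowest. Mean Tagln rose from 31.8 ± 5.14 to 56.5 ± 11.5 FPKM (SD, n = 4 each), 1.78-fold. On the log2(FPKM + 1) scale, which understates the change of low genes, the change was 0.81 ± 0.16 (SE; limma adjusted p = 0.0119). The rise passed the test in each of the 18 alternative analyses, with an adjusted p of 0.00632 to 0.0340 and a log2 change of 0.86 without wild type replicate 4, the library with airway genes. Tagln overlaps Pcsk7 and an antisense transcript on the opposite strand, and whether counting used strand is not stated, so reads of these genes may not be separated.

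Myl9 encodes the regulatory light chain that is phosphorylated when smooth muscle contracts. The gene (ENSMUSG00000067818, chromosome 2, 156775420 to 156781658, plus strand) measured 148, 184, 189 and 196 FPKM across the wild type hearts, and 204, 501, 423 and 275 FPKM across the knockout hearts. The groups did not overlap, but knockout replicate 1 was close to the wild type level while knockout replicates 2 and 3 were more than 2-fold above the wild type mean. The means were 179 ± 21.4 and 351 ± 135 FPKM, a ratio of 1.95 and the largest of the 10 genes, with a log2 change of 0.88 ± 0.25. Myl9 missed the threshold (limma adjusted p = 0.0520). Its adjusted p was 0.00716 without knockout replicate 1, 0.0318 with the atrial gene Bmp10 as a covariate and 0.0117 with array weights, and it ran up to 0.121 in the other alternatives.

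Acta2, smooth muscle alpha-actin, did not follow Tagln and Myl9. The gene (ENSMUSG00000035783, chromosome 19, 34241090 to 34255590, minus strand) measured 482, 669, 825 and 363 FPKM across the wild type hearts, and 569, 324, 609.5 and 293 FPKM across the knockout hearts. The groups overlapped broadly, and the highest and lowest wild type values differed by more than 2-fold. Mean Acta2 was 585 ± 204 FPKM without and 449 ± 163 FPKM with the knockout, a log2 change of -0.39 ± 0.31 (limma adjusted p = 0.445) with a 95% confidence interval of -1.10 to 0.32. That interval spans both a fall of more than 2-fold and a small rise.

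Because Myl9 and Acta2 are the most abundant contractile markers, their promoter sequences are shown with the elements that SRF is known to bind. The sequences are from RefSeq (GRCm38.p6, the assembly of mm10), run 5′ to 3′ on the strand of the gene, and have CArG boxes, or the same element with 1 G or C among its 6 inner bases, in capitals. Positions are counted back from the RefSeq transcript start. The Myl9 stretch (chr2:156775264-156775419) holds a CArG box at -161 and a near match at -99. The 30-base stretches of Acta2 (chr19:34255438-34255467 and chr19:34255388-34255417) hold near matches at -84 and -34. Both stretches lie inside the GENCODE span of the gene (34241090 to 34255590, minus strand), downstream of the start annotated there.
Myl9: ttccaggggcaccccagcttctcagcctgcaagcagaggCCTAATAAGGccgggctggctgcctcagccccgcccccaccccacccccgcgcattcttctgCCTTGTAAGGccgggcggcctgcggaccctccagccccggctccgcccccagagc
Acta2 at -84: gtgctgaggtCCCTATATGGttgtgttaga
Acta2 at -34: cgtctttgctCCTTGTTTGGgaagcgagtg
Both genes thus carry such elements in a window of 300 bases (250 before to 50 after the start, searched on both strands). Whether the elements bear on the values of either gene was not tested. Of 32841 windows of this length, 1.63% hold a CArG box and 8.49% a near match. Windows were found for 7 of the 10 markers: Acta2, Myl9, Cnn1, Rgs4, Rgs5, Cspg4 and Abcc9. None of the 4 pericyte windows held a CArG box or near match, nor did that of Cnn1. Of 18 other contractile genes with a window, from the list described below, 1 held a CArG box and 0 a near match. Of 11 other pericyte genes with a window, 0 held either. These windows therefore do not set contractile genes in general apart from pericyte genes.

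Myh11, the smooth muscle myosin heavy chain and the most restricted of the contractile markers, was low and did not pass the test. It (ENSMUSG00000018830, chromosome 16, 14194535 to 14291372) measured 7.36, 5.76, 3.85 and 7.50 FPKM across the wild type hearts, and 4.11, 4.90, 4.50 and 6.55 FPKM across the knockout hearts. The wild type mean of 6.12 ± 1.70 FPKM and the knockout mean of 5.02 ± 1.07 FPKM differed by about the SD of the knockout group and less than that of the wild type (log2 change -0.22 ± 0.19, limma adjusted p = 0.460). Cnn1, which encodes calponin, an inhibitor of actomyosin, varied most. It (ENSMUSG00000001349, chromosome 9, 22099216 to 22109630) measured 4.32, 2.48, 1.25 and 5.04 FPKM across the wild type hearts, and 1.61, 6.67, 1.35 and 0.831 FPKM across the knockout hearts. A single library, knockout replicate 2, held the highest Cnn1 value of all 8, and the other 3 knockout values lay within or below the wild type range. The log2 change of Cnn1 was -0.39 ± 0.47 (limma adjusted p = 0.622), and its sign was positive with array weights (0.16) and without both replicates 4 (0.058).

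Knockout replicate 2 was the highest library for Tagln, Myl9 and Cnn1 but among the lowest for Acta2. It also had the highest sum over the 5 atrial markers, 11820 FPKM, of which Nppa made up 8759 FPKM. That sum was 2860 to 6439 FPKM in the other knockout and 2478 to 3865 FPKM in the wild type libraries. The same library was highest for elastin (Eln, the elastic fibre protein of large arteries) at 874 FPKM, and its 5 large artery wall genes summed to 1113 FPKM, against 492 to 653 FPKM in the other knockout and 354 to 501 FPKM in the wild type libraries. Of those 5 genes, 2 rose (Eln and Lox) and 0 fell, while 3 missed the threshold; 1 of them (Mfap4) was lower at an unadjusted p under 0.05. Eln averaged 236 ± 60.4 FPKM without and 548 ± 234 FPKM with the knockout (log2 change 1.15 ± 0.29, limma adjusted p = 0.0345), a call lost on omitting knockout replicate 3 or 4, or wild type replicate 2, 3 or 4 (adjusted p up to 0.0901), with Bmp10 as a covariate (0.0522) and with no filter (0.0585). Genes of activated fibroblasts, which can also make Tagln and Acta2, summed to 226 to 490 FPKM in the knockout and 196 to 283 FPKM in the wild type libraries, and 4 of 8 rose (Cthrc1, Thbs4, Cilp and Col8a1) and 0 fell, beside 6.15% and 6.01% over all genes tested. A further member, Comp, was lower at an unadjusted p under 0.05 (log2 change -0.56, limma adjusted p = 0.0893). Of 8 fibroblast markers, not chosen for a resting or activated state, 0 were higher, 2 were lower (Dcn and Lum) and 6 missed the threshold. Their sums were 785 to 843 FPKM in the knockout against 922 to 1033 FPKM in the wild type libraries. Mfap5 is in both this list and that of the large artery wall. Heart muscle markers had 0 higher and 1 lower (Tnni3) of 8. The part of these cell types in the rise of Tagln was not tested; without knockout replicate 2 the log2 change of Tagln was 0.68 (limma adjusted p = 0.0266).

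**Figure D2:**
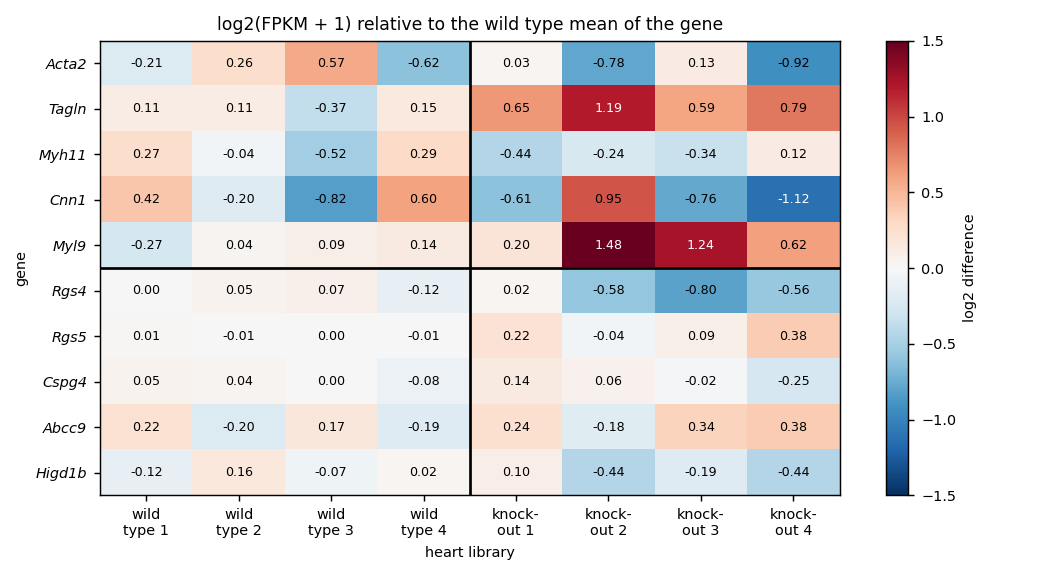
Difference of log2(FPKM + 1) from the wild type mean of each gene, with the 10 markers as rows (5 contractile genes above the line, 5 pericyte genes below) and the 8 heart libraries as columns; red is higher and blue lower, and each cell carries its value. Tagln and Myl9 are positive in all 4 knockout libraries, Rgs4 is negative in knockout replicates 2 to 4 (-0.80 to -0.56) and near 0 in knockout replicate 1.

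Among pericyte genes, Rgs5, a regulator that shortens G protein signals and the most used pericyte marker, was the steadiest in the wild type. It (ENSMUSG00000026678, chromosome 1, 169655501 to 169695813, plus strand) measured 221, 219, 219 and 219 FPKM across the wild type hearts, and 255, 214, 234 and 285 FPKM across the knockout hearts. The wild type values spanned less than 3 FPKM, and the knockout values lay on both sides of them. The means were 219 ± 1.35 and 247 ± 30.5 FPKM (log2 change 0.16 ± 0.09, 95% confidence interval -0.04 to 0.36, limma adjusted p = 0.256). The interval does not reach a 2-fold change in either direction.

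Rgs4, a paralog and neighbour of Rgs5, was lower in 3 of 4 knockout libraries. Its gene (ENSMUSG00000038530, chromosome 1, 169741477 to 169747642, minus strand) lies 45.7 kb from Rgs5 with no annotated gene between. Rgs4 measured 9.36, 9.69, 9.86 and 8.50 FPKM across the wild type hearts, and 9.51, 5.89, 4.94 and 5.99 FPKM across the knockout hearts. Knockout replicate 1 stayed within the wild type range and the other 3 lay below it. The means of 9.35 ± 0.606 and 6.58 ± 2.01 FPKM gave a log2 change of -0.48 ± 0.16 that missed the threshold (limma adjusted p = 0.0728; 0.00359 without knockout replicate 1 and 0.0154 with array weights). The ratio of Rgs4 to Rgs5 was 0.0389 to 0.0450 in the wild type and 0.0373, 0.0275, 0.0211 and 0.0210 in knockout replicates 1 to 4, lower in every knockout library; this ratio was formed after the values were seen and was not tested.

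The 120 bases before the starts of these neighbours are shown for comparison, with the HIF core (ACGTG or GCGTG on either strand) in capitals: Rgs4 (chr1:169747643-169747762) has GCGTG at -43 and Rgs5 (chr1:169655381-169655500) has none.
Rgs4: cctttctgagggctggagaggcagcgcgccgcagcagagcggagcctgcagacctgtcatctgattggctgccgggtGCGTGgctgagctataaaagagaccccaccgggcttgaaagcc
Rgs5: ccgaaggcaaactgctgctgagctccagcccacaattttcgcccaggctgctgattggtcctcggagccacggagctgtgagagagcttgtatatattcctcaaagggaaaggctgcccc
The core is common, since 43.8% of all 300-base windows hold it, and it was present for 2 of the 4 pericyte windows (Rgs4 and Cspg4) and for 1 of 3 contractile windows (Cnn1).

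None of the other 3 pericyte markers passed the test with all 8 libraries. Cspg4, the proteoglycan NG2 (ENSMUSG00000032911, chromosome 9, 56865033 to 56899870), measured 5.17, 5.12, 4.96 and 4.63 FPKM across the wild type hearts, and 5.56, 5.21, 4.89 and 4.01 FPKM across the knockout hearts. Its log2 change of -0.02 ± 0.10 had a 95% confidence interval of -0.23 to 0.20 (limma adjusted p = 0.919), the smallest change of the 10 genes. Abcc9, the SUR2 subunit of ATP-sensitive potassium channels (ENSMUSG00000030249, chromosome 6, 142587862 to 142702315), measured 41.3, 30.6, 39.7 and 30.8 FPKM across the wild type hearts, and 41.9, 31.0, 44.8 and 46.3 FPKM across the knockout hearts. The log2 change of Abcc9 was 0.20 ± 0.15 (limma adjusted p = 0.403), and an antisense transcript overlaps it. Higd1b, of the hypoxia-inducible domain family (ENSMUSG00000020928, chromosome 11, 102835849 to 102838040), measured 15.9, 19.5, 16.5 and 17.7 FPKM across the wild type hearts, and 18.7, 12.5, 15.0 and 12.5 FPKM across the knockout hearts. Its log2 change was -0.24 ± 0.13 (limma adjusted p = 0.234; 0.0435 without knockout replicate 1), with knockout replicates 2 to 4 below all wild type values.

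Set against each other as classes, contractile and pericyte markers gave differences no larger than the spread within the knockout group. The mean log2(FPKM + 1) of the 5 contractile genes minus that of the 5 pericyte genes was 0.69, 0.69, 0.42 and 0.85 in the wild type and 0.48, 1.42, 0.95 and 0.66 in the knockout libraries. The group means were 0.66 ± 0.18 and 0.88 ± 0.41, a difference of 0.22, or 0.035 without knockout replicate 2. The median log2 change was -0.22 over the contractile and -0.02 over the pericyte members, beside -0.01 over all genes tested. The gap between members of the contractile class, from -0.39 (Cnn1 and Acta2) to 0.88 (Myl9), was wider than that between the classes.

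By level per length, wild type hearts ranked Acta2 highest (585 FPKM), then Rgs5 (219 FPKM), Myl9 (179 FPKM), Abcc9 (35.6 FPKM), Tagln (31.8 FPKM), Higd1b (17.4 FPKM), Rgs4 (9.35 FPKM), Myh11 (6.12 FPKM), Cspg4 (4.97 FPKM) and Cnn1 (3.27 FPKM). The ranges of Abcc9 and Tagln overlapped, as did those of Myh11, Cspg4 and Cnn1 with their neighbours in this order, so those ranks are not set. In knockout hearts Myl9 (351 FPKM) stood above Rgs5 (247 FPKM) on average, and the ranges of Acta2, Myl9 and Rgs5 overlapped in turn. Within libraries, Myl9 exceeded Rgs5 in 0 of 4 wild type and 2 of 4 knockout hearts, and Tagln exceeded Abcc9 in 2 of 4 wild type and 4 of 4 knockout hearts. The ratio of Myl9 to Acta2 was 0.307, 0.275, 0.229 and 0.541 in the wild type and 0.360, 1.55, 0.694 and 0.937 in the knockout libraries, which overlap through wild type replicate 4 and knockout replicate 1.

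Further genes of both cell types came from lists compiled for this report, with earlier results of these data known. Of 19 other contractile genes tested, 3 rose and 1 fell, while 15 missed the threshold, with a median log2 change of 0.20. Over all genes tested, 6.15% were called higher and 6.01% lower. Whole-heart RNA does not tell which cells made these transcripts, so the counts and median may not be those of smooth muscle. Tpm1 was at 8376 to 9635 FPKM and Smtn at 50.9 to 79.5 FPKM, against 3.85 to 7.50 FPKM for Myh11. Cald1, which encodes the actin-binding protein caldesmon, rose from 30.0 ± 0.933 to 43.5 ± 2.57 FPKM (log2 change 0.52 ± 0.07, limma adjusted p = 0.00247) and was the most consistent, at 39.6 to 45.0 FPKM in the knockout against 28.6 to 30.7 FPKM in the wild type. Aoc3, a vascular amine oxidase, rose 1.56-fold (limma adjusted p = 0.0204) and desmin (Des), an intermediate filament that heart muscle also makes in quantity, rose 1.30-fold (limma adjusted p = 0.0325). The smoothelin gene Smtn fell from 73.3 ± 4.75 to 56.5 ± 7.30 FPKM (log2 change -0.38 ± 0.10, limma adjusted p = 0.0365). The call of Aoc3 was lost on omitting knockout replicate 2 or wild type replicate 4 (adjusted p up to 0.0585), that of Des without any 1 wild type library or knockout replicate 2 (up to 0.0971) and that of Smtn when any 1 library other than knockout replicate 1 was omitted (up to 0.1003). Without wild type replicate 4, and also without knockout replicate 2, 1 gene rose and 0 fell.

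Of 19 other pericyte genes, 4 rose and 3 fell, while 12 missed the threshold, beside backgrounds of 6.15% and 6.01% in a list compiled with earlier results of these data known. Their median log2 change was 0.10, or -0.013 without knockout replicate 1. As for the contractile list, whole-heart RNA does not tell which cells made these transcripts, so the counts and median may not be those of pericytes. The genes that rose were Ndufa4l2, a mitochondrial protein known to respond to hypoxia, the adhesion molecule gene Mcam, the receptor gene Notch3 and the metalloreductase gene Steap4. Ndufa4l2 rose from 24.3 ± 3.90 to 49.3 ± 4.83 FPKM (log2 change 0.997 ± 0.12, limma adjusted p = 0.00148). Notch3, which keeps mural cells in their mature state, rose from 7.52 ± 0.753 to 12.5 ± 1.59 FPKM (log2 change 0.66 ± 0.10, limma adjusted p = 0.00485). Mcam, which endothelial cells also make, was 1.62-fold higher and Steap4 1.52-fold higher.

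The genes that fell were the adhesive glycoprotein gene Vtn, the nucleotide sugar receptor gene P2ry14 and the aminopeptidase gene Anpep. Vtn measured 19.9, 23.5, 19.3 and 19.5 FPKM across the wild type hearts, and 10.02, 3.02, 5.17 and 1.86 FPKM across the knockout hearts (log2 change -2.02 ± 0.35, limma adjusted p = 0.00963). Its lowest wild type value lay well above its highest knockout value, that of knockout replicate 1. P2ry14 fell from 3.45 ± 0.5001 to 1.43 ± 0.264 FPKM (log2 change -0.87 ± 0.11, limma adjusted p = 0.00210), and Anpep was 1.62-fold lower. Ndufa4l2, Mcam, Notch3, Vtn and P2ry14 passed the test in all alternatives in which they were tested. The call of Steap4 was lost on omitting knockout replicate 2 or 3, or wild type replicate 2, 3 or 4 (adjusted p up to 0.0933), and that of Anpep without any 1 wild type library or knockout replicate 2 (up to 0.0917). Pdgfrb, the gene of the PDGF-B receptor, was at 20.9 to 23.7 FPKM in the wild type and 21.1 to 26.0 FPKM in the knockout libraries (log2 change 0.05 ± 0.09, 95% confidence interval -0.14 to 0.24, limma adjusted p = 0.738).

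**Figure D3:**
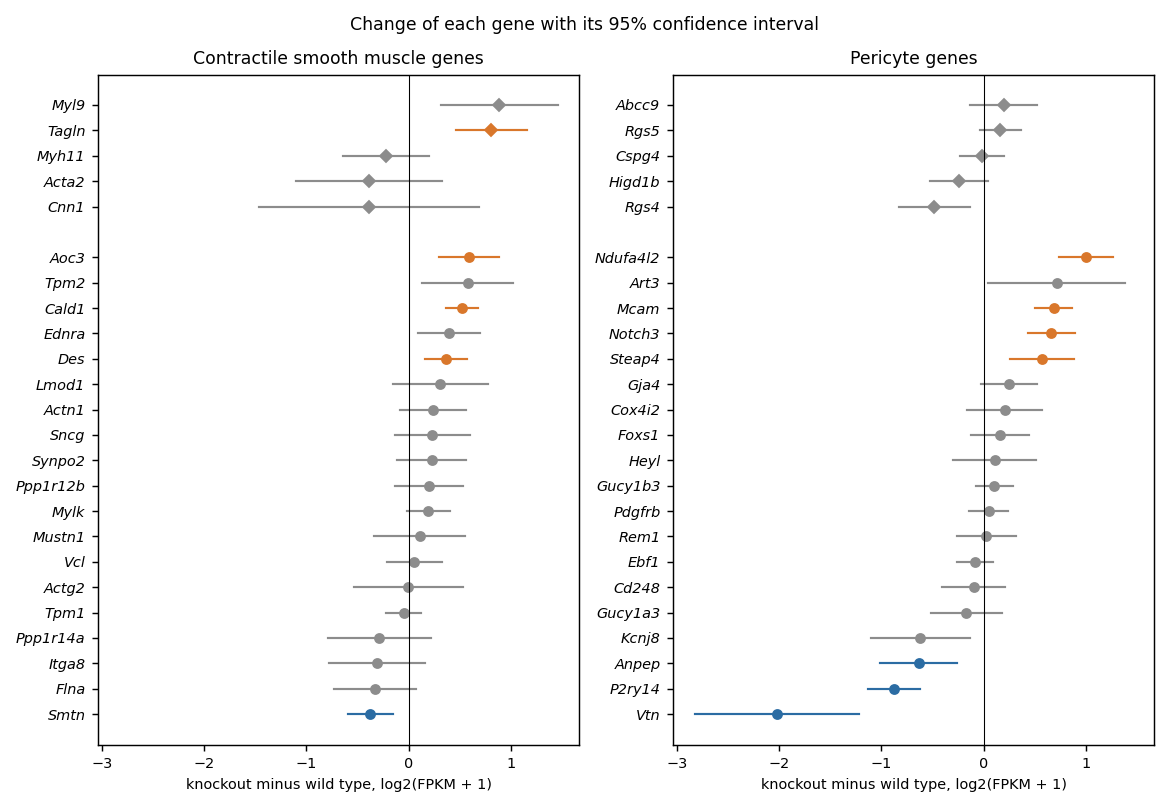
Knockout minus wild type difference of log2(FPKM + 1) for contractile genes (left) and pericyte genes (right), with lines for the 95% confidence interval; diamonds are the 10 markers and circles the other listed genes, orange marks genes called higher, blue genes called lower and grey genes that did not pass the test. Diamonds of the contractile class spread from -0.39 to 0.88, those of the pericyte class from -0.48 to 0.20, and the other pericyte genes from -2.02 to 0.997.

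**Figure D4:**
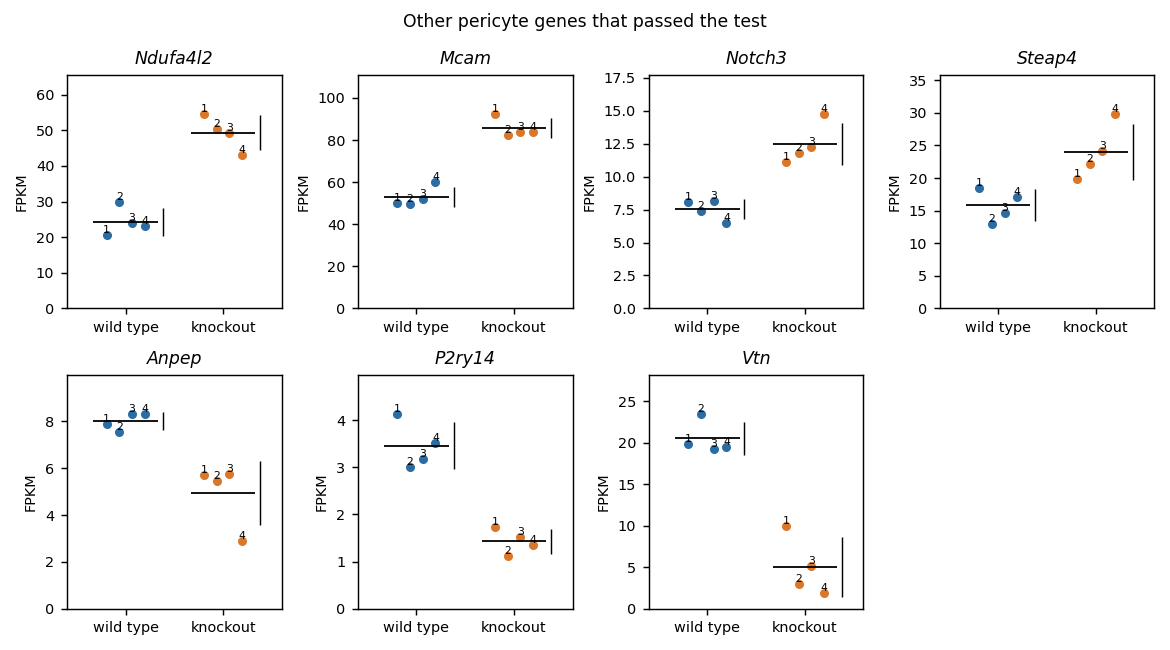
FPKM on linear axes of the 7 other pericyte genes that passed the test, 4 higher (top row) and 3 lower (bottom row) in the knockout; each point is 1 heart library with its replicate number, the horizontal line is the mean and the vertical line ± 1 SD (n = 4 per group). No gene shows an overlap between the groups, but these genes were picked for passing the test on the same values. Of all genes tested, 20.7% show no overlap. For Vtn, knockout replicate 1, at 10.02 FPKM, is the knockout value nearest to the wild type.

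The regulators and partners of the markers were examined in the same fit. Over all genes tested, 12.2% were called in either direction, so 0 calls in the lists of 8, 4 and 3 genes that follow are near that background. Of 8 SRF and myocardin-family regulators, 0 passed limma's test, with 2 higher and 1 lower at an unadjusted p under 0.05. Srf was at 24.8 to 29.4 FPKM in the wild type and 23.4 to 27.1 FPKM in the knockout libraries. Myocd, which heart muscle also makes, measured 9.56, 4.90, 7.21 and 4.84 FPKM across the wild type hearts, and 8.01, 10.6, 17.0 and 14.2 FPKM across the knockout hearts, a log2 change of 0.82 ± 0.25 that missed the threshold (limma adjusted p = 0.0611, but called without wild type replicate 1 or knockout replicate 1). Of the other actins, 4 were tested and 0 passed limma's test, also with 0 at an unadjusted p under 0.05. Of the 3 other subunits of ATP-sensitive potassium channels, 0 passed, with 1 lower at an unadjusted p under 0.05. That gene was Kcnj8, the pore partner of Abcc9 in pericytes, which measured 23.8, 24.2, 21.1 and 25.0 FPKM across the wild type hearts, and 24.7, 14.7, 13.6 and 9.98 FPKM across the knockout hearts (limma adjusted p = 0.0896; called without knockout replicate 1). As for Rgs4, knockout replicate 1 stayed within the wild type range while the other 3 lay below it.

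Of 8 other RGS genes tested, 0 rose, 2 fell (Rgs7 and Rgs10) and 6 did not pass the test, beside 6.01% lower over all genes tested. Rgs7 fell from 2.58 ± 0.560 to 1.05 ± 0.468 FPKM (log2 change -0.82 ± 0.17, limma adjusted p = 0.0168) and Rgs10 from 9.17 ± 0.840 to 6.59 ± 1.02 FPKM (limma adjusted p = 0.0356). The call of Rgs7 was lost without wild type replicate 2 (adjusted p = 0.0597) and that of Rgs10 when any 1 library other than knockout replicate 1 was omitted (up to 0.110). Of 13 signals between endothelium and mural cells, 3 rose (Notch3, Eng and Edn1), 1 fell (Tek) and 9 did not pass the test, beside 6.15% higher and 6.01% lower over all genes tested. The angiopoietin receptor gene Tek fell from 22.4 ± 1.52 to 14.8 ± 2.01 FPKM (log2 change -0.57 ± 0.10, limma adjusted p = 0.00779). The endothelin gene Edn1, whose product contracts smooth muscle, rose from 3.58 ± 0.460 to 5.97 ± 1.85 FPKM (limma adjusted p = 0.0474), a call that held only when knockout replicate 1 or 4 was the library omitted (otherwise up to 0.107). That of Eng (limma adjusted p = 0.0469) held only when knockout replicate 1 was omitted (otherwise up to 0.116). With wild type replicate 1, 2, 3 or 4 or knockout replicate 2 or 3 omitted, 1 of these 13 genes was called higher. The ligand gene Pdgfb was at 15.9 ± 1.80 and 13.0 ± 2.12 FPKM (limma adjusted p = 0.148). Endothelial markers, which bear on each of these signals, had 0 of 8 higher and 2 lower (Tie1 and Tek), with 1 higher (Pecam1) and 4 lower at an unadjusted p under 0.05 and sums of 513 to 612 FPKM in the wild type and 465 to 532 FPKM in the knockout libraries; their part in the changes was not tested.

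The genes whose profiles were most like those of Acta2 and Rgs5 were found by the root mean square difference of log2(FPKM + 1), each taken relative to its wild type mean, over the 8 libraries and 11390 genes. For Acta2 they were Itgb6 (a difference of 0.26), Nfya (0.28), Hic1 (0.29) and Lrrk2 (0.29), and for Rgs5 Rapgef1 (0.025), Cd72 (0.052), Notch4 (0.057) and Chuk (0.058). No other contractile marker was among the 4 nearest to Acta2 and no other pericyte marker among the 4 nearest to Rgs5. With only 4 places among 11390 genes, such an absence was likely beforehand and does not tell whether markers of a class vary together.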

How the data were processed

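Per the labels' protocols, heart RNA was purified with a Qiagen RNeasy kit before TruSeq library preparation. Per the submitters' processing notes, the tools were TopHat2 and Cufflinks and the build mm10, with no versions named. The deposited values are read as FPKM, quantile normalised by the authors, a unit inferred from Cufflinks and from the linear, non-integer values, since the table names none; the normalisation was inferred from the nearly equal sorted columns. Filtering required an average of 1 FPKM or more across all 8 samples, and knockout was compared with wild type on log2(FPKM + 1) in limma 3.58.1 (R 4.3.3; trend and robust options, no covariate), with Benjamini-Hochberg adjustment over all 11390 genes and a threshold of adjusted p under 0.05. The fit was tested on simulated data. Confidence intervals are limma's. Where a symbol had more than 1 row, the row with the higher mean was used. Positions are from GENCODE M21 (mm10) and promoter windows from RefSeq (GRCm38.p6). Python 3.11.15, pandas 2.3.3 and matplotlib 3.10.9 were used for the rest.

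The members, the other lists, the tests and the alternatives were chosen with earlier results of these data known. Named were all 10 members, up to 4 called genes per direction of each pathway list, and the 4 genes most like Acta2 and Rgs5. Marker lists were given as counts, and only some of them also as summed FPKM. Genes named from these lists, and genes named that were not called, were chosen after their values were seen. Some counts were not given elsewhere, and stand beside 6.15% higher and 6.01% lower over all genes tested. Of 8 skeletal muscle and 5 Schwann and neural genes listed, only 3 and 2 were tested, the rest being under the filter or absent. Skeletal muscle had 0 higher and 1 lower of these 3, and Schwann and neural 0 and 1 of these 2, lists too short to read. The atrial list had 0 and 0 of 5, with 1 higher and 1 lower at an unadjusted p under 0.05. The lung and airway list had 0 and 0 of 3, with 0 at an unadjusted p under 0.05. Alternatives changed the pseudocount, filter, scaling, variance model, weights, threshold and replicate block, added Bmp10 as a covariate, or left out samples. A further listed gene is not reported here. No count model was run, since the values are not counts.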

Additional observations from a re-analysis of the deposited data

Results flagged for a closer look

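For each marker, the 4 values of a group were checked for a library far from the other 3 (Dixon's ratio of the gap to the range, at its 95% critical value), and chance alone passes this in about 5% of groups. Of the 20 groups of marker values, 2 passed. Wild type replicate 3 was low for Tagln, at 24.1 FPKM against 33.9 to 34.9 FPKM in the other wild type libraries (ratio 0.909). Knockout replicate 2 was high for Cnn1, at 6.67 FPKM against 0.831 to 1.61 FPKM in the other knockout libraries (ratio 0.867). Without wild type replicate 3 the log2 change of Tagln was 0.68 (limma adjusted p = 0.0261). Over 160 groups that include the other pathway genes, 10 passed.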

How the results depend on the processing

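Tagln, Acta2, Myh11, Rgs5 and Abcc9 kept their direction and their side of the threshold in all 18 alternatives. The number of genes called in all, 1385, was 613 with the replicate block, 2372 at an adjusted p under 0.1; with 1 library left out it ranged from 575, when wild type replicate 2 was omitted, up to 1820, when knockout replicate 1 was. The contractile genes called higher were 2 in place of 1 (Tagln and Myl9) with array weights, the replicate block, the Bmp10 covariate or an adjusted p under 0.1, and 1 to 2 with 1 library left out, 2 being without knockout replicate 1. The pericyte genes called lower were 1 in place of 0 (Rgs4) with array weights or an adjusted p under 0.1, and 0 to 2 with 1 library left out, 2 (Rgs4 and Higd1b) being without knockout replicate 1. Signs turned only for uncalled genes. Cnn1 had a log2 change of 0.16 with array weights and 0.058 without both replicates 4. Cspg4 had 0.011 with array weights, 0.059 without knockout replicate 4 and 0.031 without both replicates 4. With 1 library left out the log2 change of Cspg4 ran from -0.071 to 0.059. The cause of these changes was not tested. The replicate numbers do not pair the samples: deviations of same-numbered libraries correlated over genes at r = -0.23, 0.0093, 0.10 and -0.097, and 2 of 8 samples correlated best with their own number. With the block, adjusted p was 0.0190 for Tagln and 0.0464 for Myl9, and the calls of Smtn, Des, Aoc3, Anpep, Steap4, Rgs10, Eng, Edn1 and Eln were lost. With no filter those of Smtn, Des, Anpep, Steap4, Rgs10, Eng, Edn1 and Eln were lost, with the Bmp10 covariate those of Smtn, Des, Rgs10, Eng, Edn1 and Eln, with neither trend nor robust fitting those of Eng and Edn1, and with median-of-ratios scaling that of Edn1. Without both replicates 4 those of Smtn, Des, Steap4, Rgs10, Eng, Edn1, Eln and Lox were lost. Cnn1 and Cspg4 have no value with a filter of 5 FPKM. Depth is unknown, so counting error of the low genes Cnn1, Myh11 and Cspg4 could not be set.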

Other observations

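Knockout replicate 1 stood with the wild type libraries for some pericyte genes and with the other knockout libraries for others. It was within the wild type range for Rgs4 (9.51 FPKM), Kcnj8 (24.7 FPKM) and Higd1b (18.7 FPKM). It lay on the side of the other knockout libraries for P2ry14 (1.74 FPKM), Notch3 (11.1 FPKM) and Ndufa4l2 (54.7 FPKM). The ratio of Kcnj8 to Abcc9, the pore and regulatory subunits of the pericyte potassium channel, was 0.577, 0.791, 0.532 and 0.811 in the wild type and 0.590, 0.473, 0.304 and 0.215 in knockout replicates 1 to 4. Heart muscle cells also use Abcc9, so this whole-heart ratio need not be that of pericytes. These values were picked after they were seen and were not tested.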
